A study of Mus musculus with 8 samples.

Results

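Classical cadherins and the regulators of epithelial-mesenchymal transition (EMT) were followed through 10 genes chosen by symbol. These are the cadherin genes Cdh1, Cdh2, Cdh3 and Cdh11, the transcription factor genes Zeb1, Zeb2, Snai1, Snai2 and Twist1, and Vim. All 10 were among the 24907 symbols of the deposited table, and 9 of them were among the 12538 genes with enough counts to be tested. Snai1 was not. Messenger RNA had been sequenced from ASZ001, a line of mouse basal cell carcinoma cells, in 8 libraries that form 4 groups of 2. Every library carried an shRNA, either a non-silencing one (NS) or one against Tgfbr1, a TGF-beta receptor kinase gene (KD). These are called control and depleted cells below. Each kind of cell received either DMSO, called vehicle below, or Dox-4OHT (doxycycline with 4-hydroxytamoxifen, as commonly abbreviated), called drug treatment below. RasV12, a constitutively active Ras, is in the labels of every drug-treated library and of no vehicle library. The labels used here do not state the RasV12 construct, the doses, the times or the shRNA sequences. No library received the drugs without the RasV12 label, so the drugs and Ras cannot be told apart. Below, drug treatment and the drugs name the comparison with vehicle and not a cause. The labels name no further shRNA against Tgfbr1. Its loss and other differences between control and depleted cells therefore cannot be told apart, and knockdown below names that comparison.

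Library totals ran from 12724604.5 to 16233379 counts. Tgfbr1 lay at 77.1 to 104 CPM (a gene's counts scaled to a common library size) in the 4 control libraries and at 8.08 to 10.2 CPM in the 4 depleted libraries, so each library matched its shRNA label. The labels do not say whether both libraries in a group stem from independent cultures, so the p-values measure a spread between samples that may be only technical. Each group mean below is followed by its SD over 2 libraries and each log2 change by a standard error worked back from its test. Adjusted p-values come from the quasi-likelihood test of edgeR, by the Benjamini-Hochberg method across the tested genes, and rose, fell or changed is written of genes with an adjusted p under 0.05. The RNA is from bulk cultures, in which fewer cells with a transcript and less of it per cell cannot be told apart.

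Classical cadherins join like cells through their outer domains and hold the actin skeleton through catenins. Epithelial cells of the skin carry E-cadherin (Cdh1) and, in the basal layer and hair follicle, P-cadherin (Cdh3), while N-cadherin (Cdh2) and cadherin-11 (Cdh11) are typical of mesenchymal and neural cells. In EMT the ZEB, SNAIL and TWIST factors, which TGF-beta can induce, repress Cdh1 by binding E-box sequences, and the intermediate filament protein vimentin (Vim) accumulates. Loss of Cdh1 with gain of Cdh2 is known as the cadherin switch.

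Cdh1 and Cdh3 made up most of the cadherin message of these cells. Scaled by the length of the gene entry, Cdh3 lay at 144 ± 5.82 and Cdh1 at 112 ± 2.63 CPM per kilobase in vehicle controls, against 54.3 ± 1.12 for Cdh2 and 4.54 ± 0.0831 for Cdh11. In that group 97.1% of the tested genes had a lower level per kilobase than Cdh3, 95.5% than Cdh1 and 87.7% than Cdh2, but only 28.5% than Cdh11. Of the summed level per kilobase of the 4 genes, Cdh2 and Cdh11 together took 18.7% (17.3% and 1.45%). The line thus held transcripts of epithelial and of mesenchymal-type cadherins side by side.

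**Figure D1:**
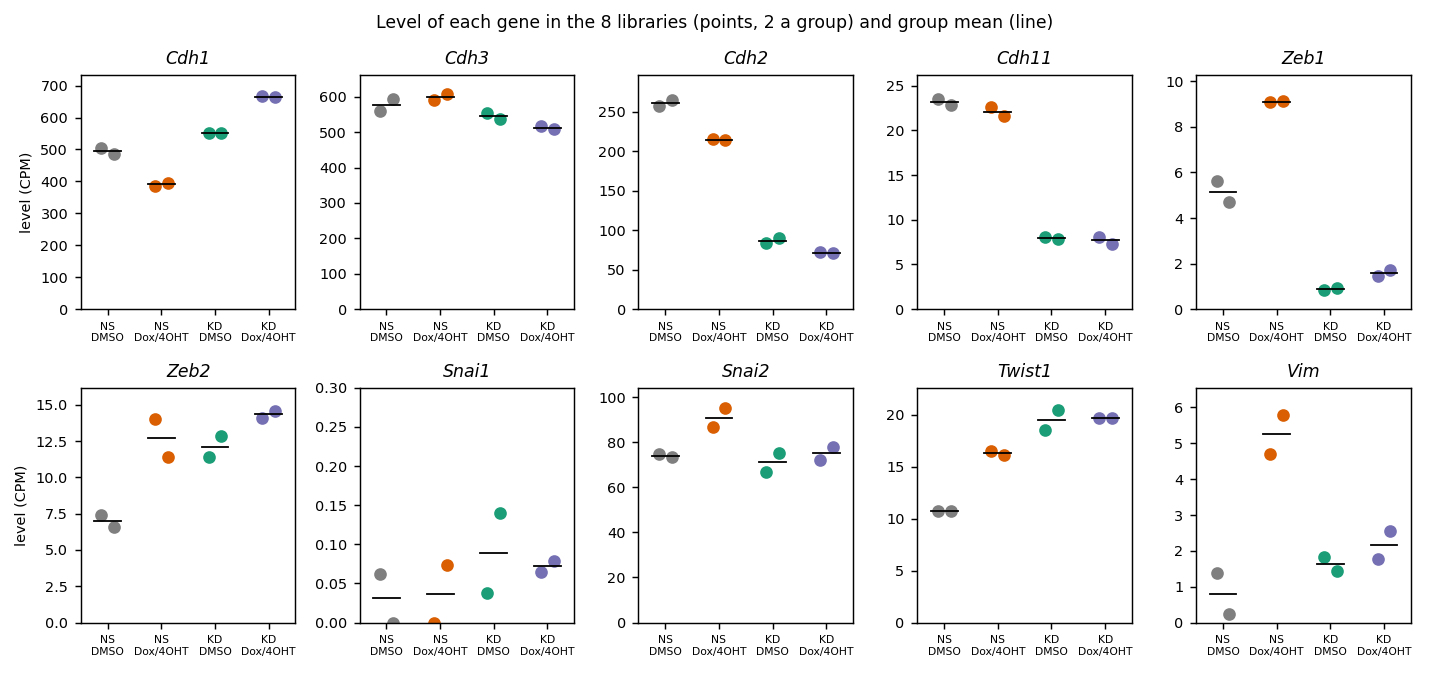
Level in CPM (linear axis from 0, a scale of its own in each panel) of the 10 genes in the 8 libraries, with NS for control and KD for depleted cells, points for the libraries and lines for the group means. Cdh2, Cdh11 and Zeb1 are low in all 4 depleted libraries, Zeb2 and Twist1 are lowest in vehicle controls, and Vim is highest in drug-treated controls.

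Cdh1 was measured at 503 and 487 CPM in vehicle controls and at 387 and 396 CPM in drug-treated controls. In depleted cells it lay at 552.5 and 552 CPM in vehicle and at 666 and 664 CPM with drugs. The 4 groups did not overlap, and each step in their order, from control cells after drug treatment up to depleted cells after drug treatment, passed the test. After drug treatment Cdh1 fell in control cells, with a log2 change of -0.34 ± 0.03 (adjusted p = 2.01e-09), and rose in depleted cells, with 0.27 ± 0.03 (adjusted p = 1.57e-07). The 2 responses differed by 0.61 ± 0.05 (adjusted p = 4.73e-11). The knockdown raised Cdh1 by 0.16 ± 0.03 in vehicle (adjusted p = 0.000124), a 1.12-fold rise, and by 0.77 ± 0.03 with drugs (adjusted p = 3.16e-17), a 1.70-fold rise.

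Cdh3, which lies next to Cdh1 on the same chromosome in the RefSeq annotation with no coding gene between them, moved less. Its libraries were at 560 and 593 CPM in vehicle controls, 590 and 608 CPM in drug-treated controls, 554 and 536 CPM in vehicle depleted cells and 516 and 508 CPM in drug-treated depleted cells. The knockdown lowered it with drugs, with a log2 change of -0.23 ± 0.03 (adjusted p = 2.3e-06), at levels that did not overlap. In control cells its change after drug treatment was 0.06 ± 0.03 (adjusted p = 0.195, 95% interval -0.01 to 0.13), and the libraries of the 2 groups overlapped. A lower level with the knockdown in vehicle (-0.08 ± 0.03, adjusted p = 0.0422) did not hold by DESeq2 (0.159), without the filter on low counts (0.0988), or without any library other than vehicle control replicate 1 (0.0614 to 0.552). A fall after drug treatment in depleted cells (-0.09 ± 0.03, adjusted p = 0.0434) did not hold by DESeq2 (0.240) or without vehicle depleted replicate 1 (0.179), drug-treated depleted replicate 1 (0.114) or drug-treated depleted replicate 2 (0.213).

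Cdh2 separated the cells by shRNA. It was at 258 and 266 CPM in vehicle controls and 216 and 214 CPM in drug-treated controls. In depleted cells it was at 83.9 and 90.1 CPM in vehicle and 72.2 and 71.1 CPM with drugs. The log2 change with the knockdown was -1.59 ± 0.04 in vehicle (adjusted p = 8.57e-22) and -1.58 ± 0.04 with drugs (adjusted p = 2.98e-21), and the level in vehicle was 3.01-fold lower. The drugs lowered Cdh2 by a similar, smaller step in each kind of cell, with log2 changes of -0.28 ± 0.04 in control cells (adjusted p = 9.72e-07) and -0.28 ± 0.05 in depleted cells (adjusted p = 3.93e-05). The 2 responses differed by 0.00 ± 0.06 (adjusted p = 0.964), with a 95% interval from -0.12 to 0.13.

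Cdh11, a scarcer transcript, had the same division, without a called change after drug treatment. Its libraries were at 23.5 and 22.9 CPM in vehicle controls, 22.6 and 21.6 CPM in drug-treated controls, 8.02 and 7.80 CPM in vehicle depleted cells and 8.11 and 7.31 CPM in drug-treated depleted cells. The knockdown changed it by -1.55 ± 0.11 in vehicle (adjusted p = 8.44e-13) and by -1.51 ± 0.11 with drugs (adjusted p = 2.79e-12). After drug treatment its change was -0.07 ± 0.09 in control cells (adjusted p = 0.537) and -0.03 ± 0.13 in depleted cells (adjusted p = 0.891), with 95% intervals from -0.25 to 0.11 and from -0.31 to 0.24. The interval in depleted cells includes the change of Cdh2 there (-0.28).

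Within a library the ratio of Cdh2 to Cdh1 is free of library size. Relative to its mean in vehicle controls it was 0.969 and 1.03 in those libraries, 1.05 and 1.02 in drug-treated controls, 0.287 and 0.308 in vehicle depleted cells and 0.205 and 0.202 in drug-treated depleted cells. The ratio thus stayed within 0.969 to 1.05 in the 4 control libraries, in which Cdh1 and Cdh2 both fell after drug treatment, and was lowest in the depleted libraries with drugs, in which Cdh1 rose and Cdh2 fell. Per kilobase, Cdh2 stood at 48.4% ± 2.13 of Cdh1 in vehicle controls and at 50.2% ± 1.11 with drugs. In depleted cells it stood at 14.4% ± 0.738 and 9.86% ± 0.0858. No test was made of these ratios.

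**Figure D2:**
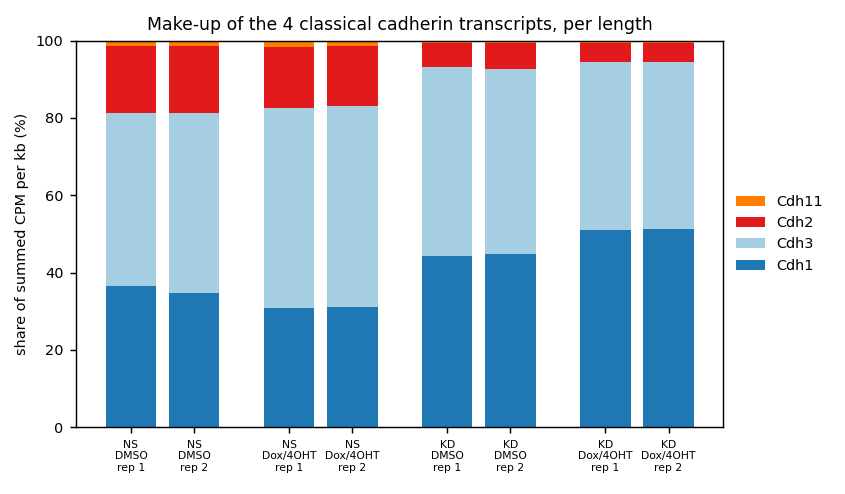
Share of Cdh1, Cdh3, Cdh2 and Cdh11 in the sum of their levels per kilobase (percent, linear axis from 0), with 1 bar for each of the 8 libraries. The share of Cdh2 goes from 17.3% in vehicle controls to 6.43% in vehicle depleted cells, and that of Cdh1 from 35.7% to 44.6% (group means).

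The sum of the 4 cadherins per kilobase was 314 ± 4.22 CPM per kilobase in vehicle controls, 287 ± 4.45 in drug-treated controls, 280 ± 2.30 in vehicle depleted cells and 295 ± 1.97 in drug-treated depleted cells. Cdh1 took 30.9% ± 0.0566 of it in drug-treated controls and 51.1% ± 0.233 in drug-treated depleted cells, where it passed Cdh3 (43.3% ± 0.177) as the most abundant of the 4.

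Zeb1 and Zeb2 encode related repressors with zinc fingers and homeodomain, which are best known for silencing Cdh1. Zeb1 had 90.5 and 66 counts (5.63 and 4.69 CPM) in vehicle controls and 117.5 and 124.5 counts (9.07 and 9.12 CPM) in drug-treated controls. In depleted cells it had 11 and 13.5 counts (0.840 and 0.949 CPM) in vehicle and 22.5 and 22 counts (1.47 and 1.72 CPM) with drugs. All 4 depleted libraries were below all 4 control libraries. The log2 change with the knockdown was -2.49 ± 0.25 in vehicle (adjusted p = 2.64e-09) and -2.53 ± 0.20 with drugs (adjusted p = 1.93e-11), levels 5.60-fold and 5.79-fold lower. The drugs raised Zeb1 in control cells by 0.81 ± 0.15 (adjusted p = 9.23e-05). In depleted cells the change was 0.77 ± 0.34 (adjusted p = 0.0776), of like size but on few counts, and the responses differed by -0.05 ± 0.42 (adjusted p = 0.945, 95% interval -0.91 to 0.82).

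Zeb2 did not share the fall of Zeb1. It lay at 7.43 and 6.57 CPM in vehicle controls, below the other 6 libraries, which were at 14.0 and 11.4 CPM in drug-treated controls, 11.4 and 12.8 CPM in vehicle depleted cells and 14.1 and 14.6 CPM in drug-treated depleted cells. It rose after drug treatment in control cells by 0.85 ± 0.13 (adjusted p = 8.74e-06) and with the knockdown in vehicle by 0.79 ± 0.14 (adjusted p = 1.32e-05). From either of these levels the second perturbation added a change that did not pass, 0.17 ± 0.12 for the knockdown with drugs (adjusted p = 0.224) and 0.23 ± 0.12 for the drugs in depleted cells (adjusted p = 0.129). The drug responses of the 2 kinds of cell differed by -0.62 ± 0.18 (adjusted p = 0.00758), which did not hold by DESeq2 (0.0859) or without drug-treated control replicate 1 (0.0595). Zeb2os, a non-coding gene that overlaps Zeb2 in the RefSeq annotation, had 6 to 19.5 counts in the table against 92.5 to 216.5 of Zeb2. As the strand setting is not given, reads of the pair cannot be told apart.

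Per kilobase, Zeb1 was 53.9% ± 1.05 of the sum of Zeb1 and Zeb2 in vehicle controls and 53.4% ± 3.73 with drugs. It was 10.5% ± 0.0354 in vehicle depleted cells and 15.0% ± 1.14 with drugs. The sum itself was 1.65 ± 0.181 CPM per kilobase in vehicle controls and 1.47 ± 0.121 in vehicle depleted cells, with 2.95 ± 0.195 and 1.83 ± 0.0670 with drugs. The 2 repressor genes thus stood at near-equal levels in control cells, and Zeb2 supplied most of the sum in depleted cells.

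Twist1, which encodes a basic helix-loop-helix factor, followed a course like that of Zeb2. Its libraries were at 10.8 and 10.8 CPM in vehicle controls, 16.6 and 16.1 CPM in drug-treated controls, 18.5 and 20.4 CPM in vehicle depleted cells and 19.7 and 19.7 CPM in drug-treated depleted cells. Vehicle controls were again the lowest group. Twist1 rose with the knockdown in vehicle by 0.85 ± 0.10 (adjusted p = 5.14e-08) and after drug treatment in control cells by 0.59 ± 0.11 (adjusted p = 5.25e-05). In depleted cells its log2 difference after drug treatment was 0.01 ± 0.09 (adjusted p = 0.928, 95% interval -0.18 to 0.20), and the responses differed by -0.58 ± 0.14 (adjusted p = 0.00178). The rise with the knockdown in drug-treated cells (0.27 ± 0.10, adjusted p = 0.0169) did not hold by DESeq2 (0.122) or without drug-treated control replicate 2 (0.0754), drug-treated depleted replicate 1 (0.0632) or drug-treated depleted replicate 2 (0.0536).

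Snai2 encodes SLUG, the SNAIL family member of basal keratinocytes, and was the most abundant of the 5 factor genes per kilobase in every group. It lay at 74.7 and 73.5 CPM in vehicle controls, 86.8 and 95.1 CPM in drug-treated controls, 66.9 and 75.4 CPM in vehicle depleted cells and 72.2 and 78.1 CPM in drug-treated depleted cells. Drug-treated controls stood above the other 3 groups, which overlapped. Snai2 rose there by 0.30 ± 0.06 against vehicle (adjusted p = 0.000226), and with drugs the knockdown changed it by -0.28 ± 0.06 (adjusted p = 0.000249). The difference between the drug responses, -0.22 ± 0.08 (adjusted p = 0.0408), did not hold by DESeq2 (0.220) or without vehicle control replicate 1 (0.0777), vehicle control replicate 2 (0.111), vehicle depleted replicate 2 (0.283), drug-treated control replicate 2 (0.190) or drug-treated depleted replicate 1 (0.204).

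Snai1, the gene of SNAIL itself and an early target of TGF-beta in many epithelial cells, was at the limit of detection. It had 0 to 2 counts in each library and 6.5 counts over all 8. A floor of 3 counts corresponds to 0.187 to 0.234 CPM in these libraries, every library was below it, and no fold is given.

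Vim, the gene of the intermediate filament of mesenchymal cells, was scarce throughout, with 3.5 to 79 counts a library. It had 22 and 3.5 counts (1.37 and 0.249 CPM) in vehicle controls and 61 and 79 counts (4.71 and 5.79 CPM) in drug-treated controls. In depleted cells it had 24 and 20.5 counts (1.83 and 1.44 CPM) in vehicle and 27 and 32.5 counts (1.76 and 2.54 CPM) with drugs. The pair of control libraries in vehicle had exact 95% binomial intervals that did not overlap, from 0.857 to 2.07 and from 0.0774 to 0.728 CPM. Even in drug-treated controls only 22.3% of the tested genes had a lower mean level per kilobase.

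In control cells Vim rose after drug treatment by a log2 change of 2.60 ± 0.35 (adjusted p = 7.66e-06). The rise was 1.94 without vehicle control replicate 2 (adjusted p = 1.49e-05) and 4.17 without vehicle control replicate 1 (adjusted p = 5.69e-08). In depleted cells the change was 0.38 ± 0.38 (adjusted p = 0.471, 95% interval -0.41 to 1.17), and the responses differed by -2.22 ± 0.54 (adjusted p = 0.00326), by -1.56 without vehicle control replicate 2 (0.0083) and by -3.80 without vehicle control replicate 1 (2.95e-05). In drug-treated cells the knockdown changed Vim by -1.32 ± 0.29 (adjusted p = 0.000745). In vehicle its change was 0.90 ± 0.45 (adjusted p = 0.0947), a value that differed with the control libraries used. It was 2.48 without vehicle control replicate 1 (adjusted p = 0.00111) and 0.24 without vehicle control replicate 2 (adjusted p = 0.622), and it passed without the filter on low counts (0.028).

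Zeb2 and Twist1 were lowest in vehicle controls. The mean of Vim was also lowest there, but its step up to vehicle depleted cells did not pass (adjusted p = 0.0947). Upstream sequence is shown for the members that rose after drug treatment in control cells and have an entry in the RefSeq promoter table (GRCm38.p6). That promoter set has entries for 4 of the 10 genes (Zeb2, Snai1, Twist1 and Vim). Snai1 was not tested for a change, and its window is not shown. Each line gives the 250 bases before a start site, 5′ to 3′ on the strand of the gene, with capitals for matches to TGANTCA, the AP-1 motif, or to CAGAC, a SMAD motif, on either strand. For Zeb2 the entry has 4 start sites, the table of counts does not say which was used, and the site with TGANTCA matches is shown.
Zeb2 (chr2:45110278-45110527, minus strand): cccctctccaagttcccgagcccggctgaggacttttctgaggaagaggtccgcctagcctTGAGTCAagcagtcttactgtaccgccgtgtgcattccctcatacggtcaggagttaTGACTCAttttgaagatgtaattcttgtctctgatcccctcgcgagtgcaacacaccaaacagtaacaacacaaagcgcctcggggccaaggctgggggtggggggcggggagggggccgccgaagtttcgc
Twist1 (chr12:33957421-33957670, plus strand): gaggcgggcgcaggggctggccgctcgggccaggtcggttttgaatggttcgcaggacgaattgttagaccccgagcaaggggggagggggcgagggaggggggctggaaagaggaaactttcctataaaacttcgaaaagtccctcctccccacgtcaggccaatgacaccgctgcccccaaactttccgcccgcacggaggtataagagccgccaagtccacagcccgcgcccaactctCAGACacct
Vim (chr2:13574061-13574310, plus strand): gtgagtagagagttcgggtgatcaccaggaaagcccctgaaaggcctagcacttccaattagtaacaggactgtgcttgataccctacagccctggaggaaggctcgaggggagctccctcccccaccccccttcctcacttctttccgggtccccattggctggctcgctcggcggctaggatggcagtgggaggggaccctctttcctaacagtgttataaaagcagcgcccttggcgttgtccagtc

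The Zeb2 window held TGAGTCA and TGACTCA, at -189 and -132 from the start site, and the other 3 Zeb2 windows held neither motif. TGANTCA was found in 6.75% of all 32851 windows of this length. The shown Zeb2 window was picked from 4 for its matches, so this share of single windows does not measure how rare they are. The Twist1 window held CAGAC once, at -9, a motif found in 42.2% of all windows, and the Vim window held neither. CACCTG, the E-box form that ZEB and SNAIL proteins bind, read as CAGGTG on the other strand, was in none of these 3 windows and in 17.2% of all. The Snai1 window, not shown, held CACCTG 1 time. A match describes letters and does not show binding, and a missing match says only that these letters are not in the window.

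**Figure D3:**
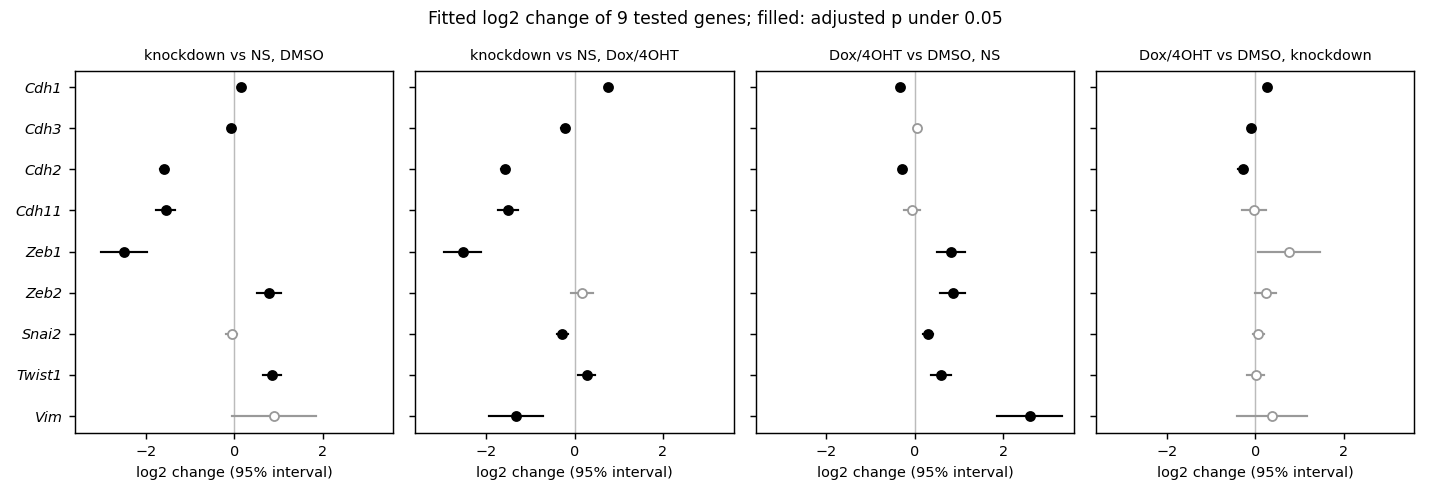
Fitted log2 change (linear axis, bars for the 95% interval) of the 9 tested genes in 4 comparisons, with filled points for an adjusted p under 0.05. Under both treatments Cdh2, Cdh11 and Zeb1 have the largest falls with the knockdown, at -1.51 or lower, whereas the largest change after drug treatment is that of Vim in control cells, at 2.60.

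With the knockdown in vehicle 3 of the 9 tested genes rose (Cdh1, Zeb2 and Twist1) and 4 fell (Cdh2, Cdh3, Cdh11 and Zeb1), at a background of 61.9% of all tested genes called in this comparison (30.9% higher and 31% lower). In drug-treated cells 2 rose (Cdh1 and Twist1) and 6 fell (Cdh2, Cdh3, Cdh11, Zeb1, Snai2 and Vim), at a background of 60.2% (30.5% higher and 29.7% lower). After drug treatment 5 rose in control cells (Zeb1, Zeb2, Snai2, Twist1 and Vim) and 2 fell (Cdh1 and Cdh2), at a background of 42.1% (20.8% higher and 21.3% lower). In depleted cells only Cdh1 rose and Cdh2 and Cdh3 fell, at a background of 36.1% (19.5% higher and 16.6% lower). These counts of 9 genes were not tested against the background. The median absolute log2 change of the 9 genes was 0.85 with the knockdown in vehicle and 0.77 with drugs, against 0.28 and 0.27 over all tested genes. After drug treatment it was 0.34 in control cells and 0.23 in depleted cells, against 0.18 and 0.16. The genes were chosen with earlier results of these data known, so these contrasts are descriptions and not tests. Falls of at least 2-fold with the knockdown in vehicle were called in 3 of the 9 (Cdh2, Cdh11 and Zeb1), at a background of 6.58%. In drug-treated cells 4 of the 9 had such falls (the same 3 genes and Vim), at a background of 4.67%. The comparisons share control libraries and are not independent of each other.

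Responses to the drugs differed between control and depleted cells in 6 of the 9 genes (1 higher and 5 lower in depleted cells), at a background of 38.2% (20.2% higher and 18% lower). By DESeq2 3 of them passed. The 3 genes without a called difference were Cdh2, Cdh11 and Zeb1.

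**Figure D4:**
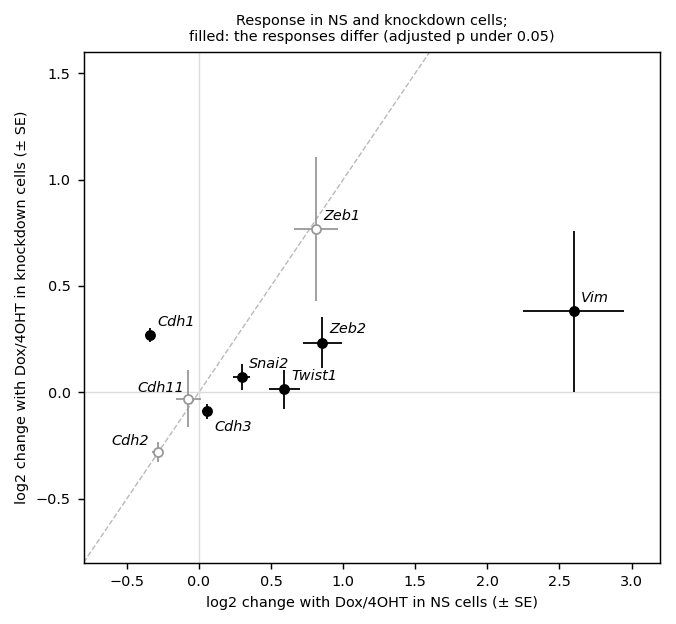
Log2 change after drug treatment in control cells (horizontal) against that in depleted cells (vertical), each ± SE, for the 9 tested genes, with the line of equal response dashed and filled points where the responses differ at an adjusted p under 0.05. Vim lies far below the line (2.60 against 0.38), Cdh1 above it (-0.34 against 0.27), and Cdh2 and Zeb1 on or near it.

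The same background shares of all tested genes apply to the lists of related genes that follow, and no list was tested against them. These lists too were chosen with earlier results of these data known, so their counts and medians are descriptions only. Among 13 tested genes of catenins, nectins and other cadherin partners 8 rose and 3 fell with the knockdown in vehicle, and 10 rose and 2 fell with drugs, where 61.9% and 60.2% of all tested genes were called. Afdn, the gene of afadin, which ties nectins to actin, rose by 0.95 ± 0.04 in vehicle (adjusted p = 2.46e-17). Ctnnd2, which encodes delta-catenin, a partner best known from neurons, fell from 44.1 ± 1.40 to 5.62 ± 1.24 CPM in vehicle (adjusted p = 8.56e-19). Nectin2, a nectin gene, rose with drugs from 14.0 ± 0.336 in control to 44.8 ± 0.863 CPM in depleted cells (adjusted p = 9.81e-16). The median log2 change of the list was 0.33 in vehicle and 0.36 with drugs, against 0.00 and -0.01 over all tested genes. After drug treatment 5 rose and 4 fell in control cells, and 5 rose and 1 fell in depleted cells, at backgrounds of 42.1% and 36.1% called.

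Of 15 other cadherin genes 2 were tested. Cdh13, whose product is held to the membrane by a lipid anchor, was at 164 ± 3.42 CPM in vehicle controls and 96.8 ± 5.13 CPM in vehicle depleted cells, with 116 ± 2.99 and 126 ± 4.11 CPM with drugs. It fell after drug treatment in control cells (-0.50 ± 0.04, adjusted p = 5.25e-10) and rose in depleted cells (0.38 ± 0.05, adjusted p = 2.88e-07), the same signs as Cdh1. With the knockdown in vehicle, where Cdh1 rose, Cdh13 fell by 0.76 ± 0.05 (adjusted p = 4.48e-14).

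Of 14 tested epithelial junction and polarity genes 10 rose and 3 fell with the knockdown in vehicle and 11 rose and 2 fell with drugs, where 30.9% and 30.5% of all tested genes rose and 31% and 29.7% fell. Their median log2 changes were 0.82 and 1.27, against 0.00 and -0.01 over all tested genes. The claudin gene Cldn4 was at 4.51 ± 0.800 CPM in vehicle controls and 39.6 ± 0.912 CPM in vehicle depleted cells, and at 7.53 ± 1.10 and 266 ± 0.296 CPM with drugs (adjusted p = 9.11e-20 and 9.99e-28). St14, the gene of the membrane protease matriptase, rose by 1.82 ± 0.05 and 2.54 ± 0.05. After drug treatment 5 of the 14 rose and 6 fell in control cells, at a background of 20.8% higher and 21.3% lower. There the polarity gene Llgl2 fell by 1.00 ± 0.05 (adjusted p = 2.17e-14), whereas Epcam rose by 0.51 ± 0.04 (adjusted p = 2.32e-11). In depleted cells 12 rose and 1 fell, at a background of 19.5% higher and 16.6% lower. The responses differed in 11 of the 14 (10 higher and 1 lower in depleted cells), at a background of 38.2%, and for Llgl2 by 1.24 ± 0.07.

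Among 12 tested genes of epithelial factors that oppose ZEB and SNAIL, 6 rose and 4 fell with the knockdown in vehicle, and 9 rose and 2 fell with drugs, at backgrounds of 61.9% and 60.2% called. Without vehicle depleted replicate 2 the first count was 4 higher and 2 lower. Median log2 changes were 0.14 and 0.65. Grhl3, a grainyhead factor of the epidermal barrier, went from 2.04 ± 0.285 to 12.8 ± 0.808 CPM in vehicle and from 5.97 ± 0.0435 to 35.9 ± 0.567 CPM with drugs. Ovol1, a zinc finger repressor of EMT genes, was higher in drug-treated depleted cells by 1.51 ± 0.09 (adjusted p = 4.41e-14). After drug treatment 2 rose and 4 fell in control cells, at a background of 20.8% higher and 21.3% lower. Among the 4 that fell was the splicing regulator Esrp2 (-0.62 ± 0.06, adjusted p = 5.49e-10). Among the 2 that rose was Grhl3 (1.53 ± 0.19, adjusted p = 2.83e-07). In depleted cells 6 rose and none fell (19.5% and 16.6% of all tested genes), among them Klf4 (0.37 ± 0.04), which had fallen in control cells by 0.37 ± 0.04.

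Other EMT transcription factors were divided, with 3 higher and 6 lower of 10 tested in vehicle and 2 higher and 5 lower with drugs in the knockdown comparisons, at backgrounds of 30.9% higher and 31% lower in vehicle and 30.5% and 29.7% with drugs. Median log2 changes were -0.43 and -0.14. Hmga2, a chromatin protein gene, rose with the knockdown in vehicle from 1.38 ± 0.340 to 68.0 ± 4.87 CPM (adjusted p = 2.07e-23). With drugs it rose from 6.26 ± 0.977 CPM in control to 119 ± 0.730 CPM in depleted cells. Sox9 fell with the knockdown in vehicle by 0.45 ± 0.03 (adjusted p = 3.44e-12). After drug treatment 4 rose and 4 fell in control cells and 5 rose and none fell in depleted cells, at backgrounds of 42.1% and 36.1% called. Of 15 corepressors and regulators of ZEB and SNAIL 5 rose and 3 fell with the knockdown under each treatment, no larger a share than the 61.9% and 60.2% of all tested genes. Ctbp2, a corepressor that ZEB1 recruits, fell from 28.6 ± 0.00779 to 12.9 ± 0.947 CPM in vehicle (adjusted p = 1.06e-10) and lay at 37.1 ± 1.33 and 13.9 ± 2.33 CPM with drugs (adjusted p = 4.33e-13). In control cells 6 of the 15 rose after drug treatment and none fell (20.8% and 21.3% of all tested genes).

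Of 17 mesenchymal effector genes 9 had enough counts to be tested. With the knockdown 1 rose and 5 fell in vehicle, and 2 rose and 5 fell with drugs, at backgrounds of 61.9% and 60.2% called (31% and 29.7% lower). Median log2 changes were -0.44 and -0.20. Sparc, the gene of a matrix glycoprotein, fell in vehicle by 0.44 ± 0.03 and the integrin gene Itga5 by 0.92 ± 0.07. After drug treatment 4 rose and 2 fell in control cells, at a background of 20.8% higher and 21.3% lower. Spp1, the gene of osteopontin, rose there from 3.09 ± 0.952 to 18.2 ± 1.69 CPM (adjusted p = 2.82e-13). In depleted cells 5 rose and none fell, where 19.5% of all tested genes rose. The count was 3 by DESeq2, 3 without vehicle depleted replicate 1, 3 without vehicle depleted replicate 2 and 2 without drug-treated depleted replicate 1.

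Markers of the line's own cell type were present, with all 7 keratinocyte and basal carcinoma markers tested and summed levels of 26204 to 26539 CPM in vehicle controls, 14022 to 14098 CPM in drug-treated controls, 17065 to 17822 CPM in vehicle depleted cells and 13723 to 13952 CPM in drug-treated depleted cells. Krt5 and Krt14 made up most of each sum, at 13238 ± 58.7 and 8462 ± 283 CPM in vehicle controls. After drug treatment in control cells 4 of the 7 fell (Krt5, Krt14, Krt15 and Itgb4) and 3 rose (Trp63, Epcam and Dsp). The background was 21.3% lower and 20.8% higher. Fibroblast and smooth muscle markers were low. Of 8 fibroblast markers Col3a1, Lum and Thy1 had no counts in any library, and the sum of the list was 3.77 to 3.92 CPM in vehicle controls, 3.47 to 4.39 CPM in drug-treated controls, 2.67 to 3.02 CPM in vehicle depleted cells and 1.14 to 1.95 CPM in drug-treated depleted cells. The 4 smooth muscle markers summed to 0.853 to 1.90 CPM and 0.806 to 0.888 CPM in vehicle and drug-treated controls, and to 0.191 to 0.422 CPM and 0.430 to 0.554 CPM in vehicle and drug-treated depleted cells. Of 5 immune markers Cd3e had no counts and Cd68 made up nearly all of the sum, which was 7.71 to 8.95, 7.36 to 7.87, 4.51 to 4.88 and 14.8 to 15.5 CPM in these 4 groups in the same order. Of 4 endothelial markers Pecam1 made up most of the sum (37.3 to 38.3, 23.0 to 24.5, 29.6 to 30.8 and 35.3 to 35.5 CPM). Of 5 pigment cell markers, where Tyr and Dct had no counts, Mitf made up most of the sum (53.1 to 55.5, 55.8 to 57.7, 32.5 to 33.6 and 38.1 to 41.0 CPM). The part of such cells, or of the differing keratinocyte sum, in the changes of the 10 genes was not tested. The ribosomal RNA gene Rn45s took 0.388% to 2.76% of the counts of a library, and the directions and calls of all 9 genes in the 5 comparisons were the same without it, apart from the sign of the Cdh2 difference near 0.

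Over the 8 libraries, the genes with the pattern most like that of a member were sought by Pearson's r of log2 CPM among 10283 genes with a mean of at least 5 CPM. The libraries fall into 4 groups, so r mostly reflects the group means. For Cdh2 they were Slc4a8 (r = 0.998), a bicarbonate transporter gene, Prkaa2 (0.998), which encodes a catalytic subunit of AMP kinase, and Tbx3 (0.997), a T-box factor gene, and 573 genes had an r above 0.95. Prkaa2 went from 68.1 CPM in vehicle controls to 6.49 CPM in vehicle depleted cells. For Cdh1 they were Bdh1 (0.994), Alkbh2 (0.994) and Dok4 (0.993), with 151 genes above 0.95. For Vim they were Rprd1a (0.979), Rabepk (0.975) and Tmem161b (0.956), with 3 genes above 0.95.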

How the data were processed

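Gene-level estimated counts, not normalized, are what the authors deposited, as 1 table of all 8 libraries. TopHat, HOMER and DESeq2 and the mouse build mm9 are named in the submitters' processing notes. Versions, strand setting and the handling of multiply matched reads were not stated there. All values are multiples of 0.5 and were rounded to integers before testing. Levels per kilobase divide by the deposited entry length in bases, not by that of the isoform in use. Of 24909 entries, 2 repeated a symbol and had the lower total; they were dropped.

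The test was edgeR 4.0.16 under R 4.3.3 (filterByExpr, TMM factors, a mean per group over all 8 libraries, 4 residual degrees of freedom, quasi-likelihood F test with robust estimation, two-sided, Benjamini-Hochberg threshold 0.05). CPM use TMM-scaled library sizes. The standard error of a log2 change is its absolute value divided by the square root of its F value. The 95% intervals of log2 changes are built from it. Exact binomial intervals (95%) and the 3-count floor describe counting error alone. Likeness used log2(CPM + 0.5). Alternatives were DESeq2 1.42.0, upper-quartile factors, no filter, only the groups compared, the replicate number as a block, no Rn45s and leaving out each library. The 10 members and the other lists were chosen with earlier results of these data known. Outside them, at most 2 genes of each list with the smallest p among those past the test in a comparison could be named, and the 3 genes most like Cdh1, Cdh2 and Vim. Promoter windows, matched by symbol, are from RefSeq GRCm38.p6, another build than the authors' mm9.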

Additional observations from a re-analysis of the deposited data

Results flagged for a closer look

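The drug response differed between depleted and control cells, by the interaction term of the edgeR fit, in 6 genes. Given as the log2 response in depleted cells minus that in control cells, the difference was 0.61 for Cdh1, which fell in control and rose in depleted cells. It was -2.22 for Vim and -0.58 for Twist1, which rose in control cells, with changes in depleted cells that did not pass. For Zeb2 it was -0.62, for Snai2 -0.22 and for Cdh3 -0.15 (-0.145 before rounding to 2 decimals). The differences of Cdh1, Vim and Twist1 passed under all 13 alternatives run. Those of Zeb2, Snai2 and Cdh3 passed under 11, 7 and 8 of the 13, with the exceptions of the first 2 named above. That of Cdh3 (adjusted p = 0.0188) did not hold by DESeq2 (0.127) or without vehicle control replicate 1 (0.127), vehicle depleted replicate 1 (0.0511), drug-treated control replicate 2 (0.0553) or drug-treated depleted replicate 2 (0.0775).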

How the results depend on the processing

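Of 690 log2 changes of the 9 tested genes and Tgfbr1 under the alternatives, 628 kept their direction and their side of the threshold, 30 no longer passed, 4 newly passed and 28 changed sign. All 28 sign changes were of values near 0 that passed under no setting. With upper-quartile factors the change of Twist1 after drug treatment in depleted cells was -0.01 (-0.00771) and that of Tgfbr1 -0.02 (-0.0187). Tgfbr1 was also at -0.00244 without the filter, -0.00299 with only the groups compared, -0.00134 with the replicate block and -0.00555 without Rn45s. The Cdh2 difference between responses was -0.0106 with upper-quartile factors, -0.00376 without the filter and -0.0031 without Rn45s. When each library was left out in turn the ranges were -0.160 to 0.161 for Tgfbr1, -0.0180 to 0.164 for Snai2, -0.0650 to 0.0900 for Twist1 and -0.105 to 0.0311 for Cdh11 after drug treatment in depleted cells, and -0.142 to 0.0404 for Snai2 with the knockdown in vehicle. For the difference between responses they were -0.0577 to 0.0550 for Cdh2, -0.196 to 0.0897 for Zeb1 and -0.0326 to 0.103 for Cdh11. By DESeq2 the genes called numbered 3265 against 5281 for the drugs in control cells, 2628 against 4531 in depleted cells and 2828 against 4791 for the difference between responses, in which 3 of the 6 genes remained (1 higher and 2 lower). The replicate numbers did not pair the libraries (correlations of -0.0389 to 0.0573 between the deviations of same-numbered libraries), and with the replicate block 5319, 4559, 7777, 7554 and 4814 genes were called in the 5 comparisons, and no call of the 9 genes changed. Snai1 was below the depth at which a change could be seen, and Vim and Zeb1 in depleted cells rest on 11 to 32.5 counts a library.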

Other observations

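Of the catenins of the classical cadherin complex, 3 picked here after their values were seen did not move as a unit with Cdh1. Ctnnb1, the gene of beta-catenin, lay at 907 ± 13.3 CPM in vehicle controls, against 682 ± 7.30 CPM in vehicle depleted cells, a log2 change of -0.41 ± 0.03 (adjusted p = 2.88e-12). The drug-treated levels were 887 ± 6.78 and 706 ± 7.68 CPM, a change of -0.33 ± 0.03 (adjusted p = 2.58e-10). Ctnna1, the gene of alpha-catenin, was higher in depleted cells, by 0.22 ± 0.03 in vehicle (adjusted p = 5.54e-07) and 0.30 ± 0.03 with drugs (adjusted p = 3.62e-09). Ctnnd1, the gene of p120-catenin, was higher by 0.35 ± 0.03 with drugs (adjusted p = 3.3e-10), with a change of 0.05 ± 0.03 in vehicle (adjusted p = 0.153). Its drug response differed between knockdown and control cells by 0.29 ± 0.04 (adjusted p = 8.02e-06), the same sign as Cdh1. Jup, another gene of the list of cadherin partners, had drug responses with the signs of Cdh1. They were -0.15 ± 0.03 in control cells (adjusted p = 0.000196) and 0.23 ± 0.03 in depleted cells (adjusted p = 9.25e-07). With the knockdown in vehicle, where Cdh1 rose, Jup fell by 0.20 ± 0.03 (adjusted p = 1.4e-06).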
